A study of Mus musculus with 12 samples.

Results

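Adipokines are proteins that fat secretes into the blood, and 8 of their genes were followed here through subcutaneous fat and liver: Cfd, Adipoq, Lep, Retn, Apln, Rbp4, Agt and Nampt. Their entries were found by symbol, and each matched 1 of the 54532 genes in the count table. Leptin (Lep) reports the size of the fat stores to the brain and its level follows adipocyte lipid, adiponectin (Adipoq) raises insulin sensitivity in liver and muscle, and adipsin (Cfd, complement factor D) is the protease that activates the alternative complement pathway. Resistin (Retn) opposes insulin action in mice, apelin (Apln) is a small peptide that acts on blood vessels and heart, and retinol binding protein 4 (Rbp4) and angiotensinogen (Agt) are made by fat but in larger amounts by liver. Nampt is the enzyme of NAD salvage that is also found outside cells under the name visfatin.

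The libraries came from male mice that received 1 injection of an adeno-associated virus of serotype 8 at 10 weeks of age, were then fed a low-fat diet and were studied 16 weeks later. The virus carried full-length human HKDC1, a hexokinase family member, behind the thyroxine-binding globulin promoter of hepatocytes (hHKDC1 OE mice), or the same promoter with no insert (null mice), so that all mice carried a vector and fat was not the tissue it targets. Each tissue and vector had 3 libraries, 12 in all, with 15496019 to 19954971 counts on genes per library. The transgene is human and was not analysed here, and mouse Hkdc1 had 0 to 8 counts per library, which checks no label. Sample titles and the treatment label place all 6 hHKDC1 OE libraries in that group, but the description of replicates 2 and 3 of each tissue calls them knockouts. They were kept as hHKDC1 OE, and fits without them are given where they change a call.

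The fat libraries held the markers of fat: the summed level of 10 adipocyte genes (Plin1, Cidec, Fabp4 and others) was 23141 to 31921 CPM (counts scaled to a common library total) in null fat and 21382 to 31895 CPM in hHKDC1 OE fat, with all 10 genes detected. They also held RNA of other cells in amounts that differed between libraries. The sum of 6 B cell genes was 1.47 to 2.79 CPM in null fat and 830, 46.4 and 589 CPM in hHKDC1 OE replicates 1, 2 and 3, and the 6 T cell genes summed to 4.68 to 13.7 CPM and to 440, 35.8 and 484 CPM. Skeletal muscle genes were at 17001, 20009 and 561 CPM in null fat and at 15826, 1130 and 2598 CPM in hHKDC1 OE fat. In a bulk sample, fewer cells of a type and less RNA per cell cannot be told apart, which applies to each level below.

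Promoter sequence is shown for the 4 members on which the results turn. Lep and Apln varied together between fat libraries, and Rbp4 and Agt were higher in liver than in fat. The 250 bases before the start of transcription are printed on the gene's own strand, from RefSeq on GRCm38.p6: Lep chr6:29059971-29060220 (+), Apln chrX:48034854-48035103 (-), Rbp4 chr19:38124812-38125061 (-) and Agt chr8:124569707-124569956 (-). Capitals mark matches, on either strand, to 5 motifs. The TATA box was searched as TATAAA. The E-box was searched as CACGTG. The core of hypoxia response elements, which the E-box contains, was searched as ACGTG. The motif bound by C/EBP factors was searched as TTGCNNAA, and the PPAR direct repeat is given by name.
Lep: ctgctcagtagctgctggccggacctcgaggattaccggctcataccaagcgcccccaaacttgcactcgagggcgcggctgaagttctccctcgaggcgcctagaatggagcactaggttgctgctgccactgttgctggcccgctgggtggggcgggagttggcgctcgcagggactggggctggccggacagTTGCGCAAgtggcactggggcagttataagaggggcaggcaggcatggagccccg
Apln: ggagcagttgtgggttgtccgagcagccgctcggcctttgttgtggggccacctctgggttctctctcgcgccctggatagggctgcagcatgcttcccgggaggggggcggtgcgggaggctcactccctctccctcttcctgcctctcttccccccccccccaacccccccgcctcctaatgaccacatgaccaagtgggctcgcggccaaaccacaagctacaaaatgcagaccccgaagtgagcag
Rbp4: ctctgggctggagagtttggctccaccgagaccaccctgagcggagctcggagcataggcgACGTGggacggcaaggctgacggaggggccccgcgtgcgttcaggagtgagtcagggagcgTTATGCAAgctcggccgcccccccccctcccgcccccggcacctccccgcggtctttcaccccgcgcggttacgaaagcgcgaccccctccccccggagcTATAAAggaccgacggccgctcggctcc
Agt: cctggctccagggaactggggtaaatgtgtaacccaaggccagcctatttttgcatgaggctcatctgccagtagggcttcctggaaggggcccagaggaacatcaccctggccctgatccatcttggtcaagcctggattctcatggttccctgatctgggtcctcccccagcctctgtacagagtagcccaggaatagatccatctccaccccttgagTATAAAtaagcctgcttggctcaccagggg
TTGCNNAA lay 55 to 48 bases before the start of Lep and is present in 9.56% of 32851 mouse promoters of the same length. TATAAA lay 30 to 25 bases before the start of Agt and 28 to 23 bases before that of Rbp4, against 12.4% of all promoters. The Rbp4 window also held TTGCNNAA 128 to 121 bases and ACGTG 189 to 185 bases before the start, the latter present in 16.6% of promoters. Rbp4 has a second RefSeq start upstream, whose window is not shown. The Apln window, like those of Adipoq, Retn and Cfd, held none of the 5 motifs, and that of Nampt held ACGTG 82 to 78 bases before the start.

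In the coordinates of the files (GRCm38) Adipoq lies at chr16:23146536-23158028 (+), Lep at chr6:29060220-29073877 (+), Retn at chr8:3655770-3660110 (+), Cfd at chr10:79890853-79892655 (+), Nampt at chr12:32819545-32853349 (+), Rbp4 at chr19:38116620-38125321 (-), Apln at chrX:48025146-48034853 (-) and Agt at chr8:124556534-124569706 (-). None shares exon bases with another annotated gene, so that the counting without strand does not mix them with a neighbour. Nampt overlaps Gdap10 in span only.

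Several adipokines ranked among the most abundant mRNAs of fat. Levels between genes are compared in the deposited FPKM (fragments scaled to gene length and to a factor per library), which correct for length. That factor was not the library total: it was 0.675 to 0.827 times the total counts in liver and 1.25 to 1.52 times in fat, the same for every gene of a library, so that FPKM order genes within a library but carry this scaling between tissues. In null fat, Cfd was at 3409 ± 1018 FPKM (SD, n = 3), the 9th of 22046 protein-coding genes, and Adipoq at 1205 ± 192, the 18th. Retn (476 ± 55.4) and Lep (466 ± 118) followed, and their order held in 1 of 3 libraries. Rbp4 was at 309 ± 113, in a range that overlapped that of Lep although it was below Lep in 3 of 3 libraries. Nampt (27.9 ± 2.42) and Agt (22.7 ± 17.9) overlapped each other, and Apln was lowest at 3.60 ± 0.430 FPKM. The other neighbours in this order had ranges that stood apart. Together the 8 genes took 0.839% to 1.09% of all counts in fat of null mice and 0.735% to 1.14% in that of hHKDC1 OE mice.

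In hHKDC1 OE fat the group means kept the same order: Cfd 3366 ± 446 FPKM, Adipoq 979.6 ± 291, Retn 366 ± 105, Lep 241 ± 298, Rbp4 171 ± 64.3, Nampt 19.4 ± 2.39, Agt 8.25 ± 4.35 and Apln 2.78 ± 2.92. The SD of Lep and of Apln was larger than the mean, since 1 library differed from the other two, and Lep was above Rbp4 in only 1 of the 3 libraries. The plot of FPKM by library shows this spread.

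**Figure D1:**
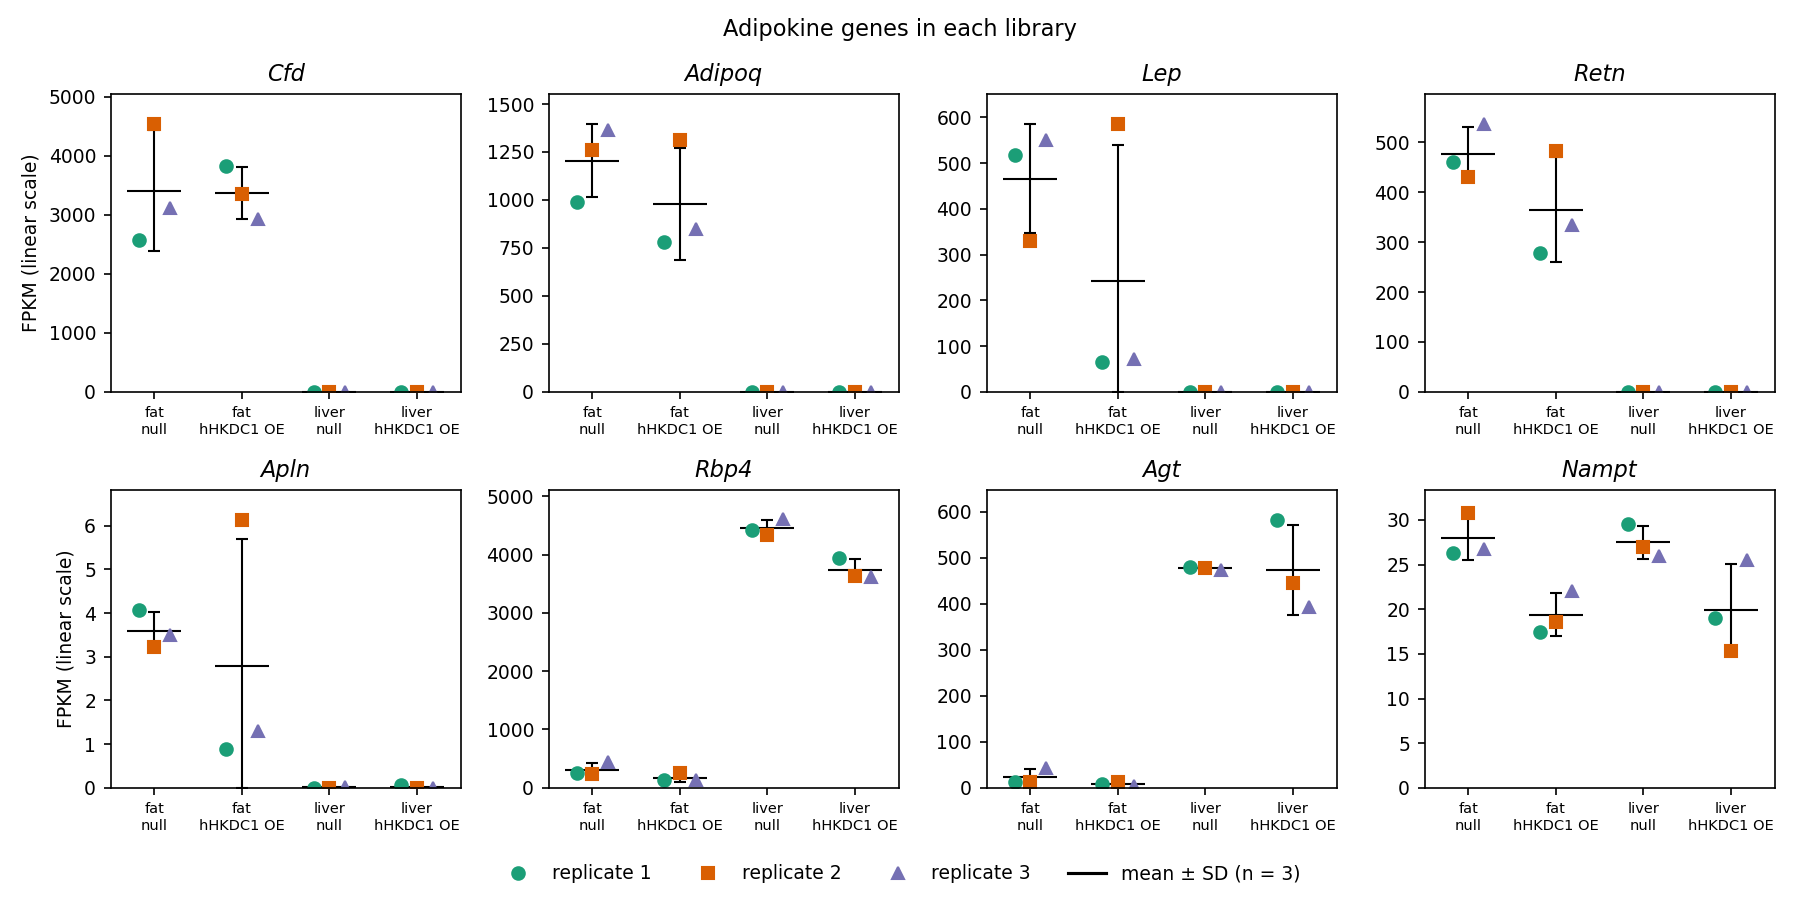
FPKM of the 8 adipokine genes in each library (linear axis from 0), in fat and liver of null and hHKDC1 OE mice, with the mean and SD of 3 libraries (the lower bar stops at 0). Cfd, Adipoq, Lep, Retn and Apln are at or near 0 in liver, and Rbp4 and Agt are higher in liver than in fat. Nampt averages 27.9 and 27.5 FPKM in null fat and liver (per total counts it is 1.81 times as high in fat). Among the hHKDC1 OE fat libraries, replicate 2 stands above replicates 1 and 3 for Lep, Apln, Adipoq, Retn, Rbp4 and Agt.

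Liver held 3 of the 8 genes at levels that could be tested between the vectors. Rbp4 was at 4452 ± 138 FPKM in null liver, the 22nd of the protein-coding genes, Agt at 477 ± 2.46, the 143rd, and Nampt at 27.5 ± 1.84. Cfd was at 1.44 ± 1.08 FPKM, with 13, 5 and 29 counts in null liver and 4, 7 and 2 in hHKDC1 OE liver. Adipoq had 0 to 5 counts per liver library, Lep and Apln 0 to 2, and Retn 0 to 1, so that the order among these 4 cannot be read.

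Which adipokine genes distinguish the tissues was compared first within the null mice. Of the 8 members 7 differed between fat and liver with an adjusted p below 0.05 (edgeR, quasi-likelihood), 5 higher and 2 lower in fat, where 64.3% of 15259 tested genes differed, 33.8% higher and 30.5% lower. The same 7 members differed in the same directions in hHKDC1 OE mice, with a background of 56.7% of 15817 genes (31.2% higher, 25.5% lower). The libraries of the 7 did not overlap between the tissues in either comparison, against 71.6% and 66.1% of all genes tested.

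The fat-enriched members had so few liver counts that their ratios carry wide counting intervals. In null mice Cfd was 4157 times as high in fat as in liver per total counts (95% exact interval 3126 to 5657, from 216605 and 47 summed counts), and Adipoq 17374 times (7982 to 47343, from 115574 and 6). The 2 summed liver counts of Lep gave a ratio of 49034 (13574 to 404890.0), the 1 of Retn 47067 (8447 to 1859090.0) and the 1 of Apln 706 (126 to 27929.6). In hHKDC1 OE mice the ratio of Cfd was 18750.2 (10965 to 35215) and that of Adipoq 20979.8 (8990 to 64615). Retn had 0 counts in all 3 hHKDC1 OE liver libraries, so that it was at least 14864-fold higher in fat, against 3 counts over the group. These intervals cover counting error only. The ratios are per total counts, and the TMM fit, whose scaling shift is given with Nampt, gave smaller log2 differences in null mice: 11.14 for Cfd, 13.13 for Adipoq and 14.51 for Lep, against 12.02, 14.01 and 15.35 with library size alone. Fitted values of genes this near 0 in liver also depend on the prior count.

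Rbp4 and Agt were lower in fat. In null mice Rbp4 fell by 3.91 on the log2 scale from liver to fat (SE 0.33, adjusted p 3.09e-05) and Agt fell by 4.45 (SE 0.53, adjusted p 0.000188). The values in hHKDC1 OE mice were -4.50 (SE 0.42, adjusted p 8.74e-05) and -5.89 (SE 0.49, adjusted p 4.99e-05). Scaled to library size without TMM, Rbp4 was at -3.004 and -3.50 and Agt at -3.53 and -4.89 in null and hHKDC1 OE mice, with adjusted p of at most 0.00066. Both proteins are classical secretion products of hepatocytes.

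Nampt was the member that did not pass the test: its log2 difference, fat over liver, was -0.03 in null mice (95% interval -0.35 to 0.30, adjusted p 0.874) and -0.09 in hHKDC1 OE mice (-0.60 to 0.41, adjusted p 0.736). This value depends on the scaling. Scaled to library size without TMM (edgeR's trimmed-mean factors) it was 0.86 (adjusted p 0.00055) and 0.91 (adjusted p 0.0073), while the median of all genes moved from 0.09 to 0.98 and from 0.12 to 1.11, so that Nampt was below the median of all genes under both scalings.

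In fat, whether hepatic HKDC1 changed adipokine mRNA was tested over the 6 libraries. Of the 8 members, all of them tested, 0 passed an adjusted p under 0.05 by edgeR, and 0% of 16380 genes did. The lowest adjusted p of any gene was 0.133, and 2903 genes (17.7%) had an unadjusted p under 0.05, among them 3 members, Nampt, Rbp4 and Agt. Fold changes were below 0 for 7 members, with a median of -0.42 against -0.05 over all genes tested. Nampt and Rbp4 were the 2 members, both lower, whose libraries did not overlap between the groups, as did not those of 22.7% of genes (10.2% lower). DESeq2, an alternative test, called 0 of the 8 members among 1301 genes and gave Lep no adjusted p.

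Lep had the largest SE of the 8 fitted log2 fold changes. Its TMM-normalized levels were 2344, 1528 and 2436 CPM in null fat and 317, 2614 and 348 CPM in hHKDC1 OE fat. Replicates 1 and 3 of the hHKDC1 OE mice lay below all null libraries and replicate 2 lay above them. Over the 6 libraries the log2 fold change was -0.94 (SE 0.82, 95% interval -2.87 to 0.98, adjusted p 0.552). Without hHKDC1 OE replicate 2 it was -2.67 (SE 0.27, adjusted p 0.00171).

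Apln divided the same libraries. It was at 17.3, 14.0 and 14.6 CPM in null fat and at 4.03, 25.7 and 5.90 CPM in hHKDC1 OE fat, again with replicates 1 and 3 below the null range and replicate 2 above it. The log2 fold change was -0.36 (SE 0.65, 95% interval -1.91 to 1.18, adjusted p 0.783), and without replicate 2 it was -1.64 (SE 0.27, adjusted p 0.00973).

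Without that library 3 members, Lep, Apln and Rbp4, passed the adjusted threshold, all lower, and 18.9% of 17190 genes did (7.53% lower). Without replicates 2 and 3, the libraries described as knockouts, Lep (-2.74, adjusted p 0.0239) and Apln (-1.93, adjusted p 0.0365) passed, both lower, as did 5.58% of 18343 genes (1.24% lower), with the remaining hHKDC1 OE library assumed to vary like the null libraries. Replicate 2 was also the hHKDC1 OE fat library with the fewest B and T cell counts and, at 31895 CPM, the most adipocyte marker counts. The endothelial markers summed to 871 to 967 CPM with the null vector and to 729, 1131 and 765 CPM in hHKDC1 OE replicates 1, 2 and 3, and those of preadipocytes and fibroblasts to 2095 to 3733 CPM and to 1403, 4497 and 2690 CPM, so that replicate 2 was highest in both. The 6 keratinocyte genes summed to 281, 16.5 and 122.8 CPM with the null vector and to 3.31, 41.8 and 5.11 CPM in the hHKDC1 OE replicates, with replicates 1 and 3 below the null range. The part of these cells in the levels of Lep and Apln was not tested, and scaling by the adipocyte markers (median over all genes 0.21, against -0.05 by TMM) left Lep at -0.90 (adjusted p 0.565) and Apln at -0.29 (adjusted p 0.846).

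**Figure D2:**
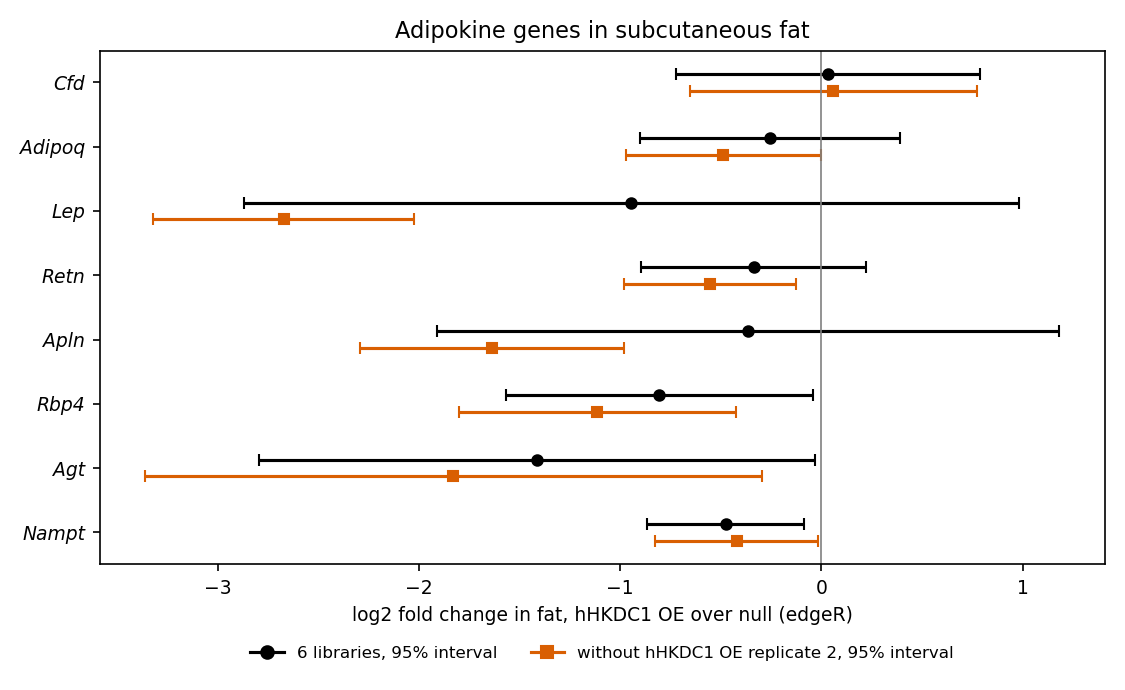
Log2 fold change of each adipokine gene in fat, hHKDC1 OE over null, with its 95% interval by edgeR, over 6 libraries (circles) and without hHKDC1 OE replicate 2 (squares). Leaving out this library moves Lep from -0.94 to -2.67 and Apln from -0.36 to -1.64, while Cfd stays near 0.

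The other adipocyte products had smaller fold changes, none of which passed the test. Cfd was at 3199.5, 5767 and 3797 CPM in null fat and at 5066, 4115 and 3869.7 CPM in hHKDC1 OE fat, all 3 inside the null range, with a log2 fold change of 0.03 (SE 0.32, 95% interval -0.72 to 0.79, adjusted p 0.964). Adipoq was at 1850.0, 2401 and 2484 CPM against 1549, 2412 and 1677, a log2 fold change of -0.26 (SE 0.27, adjusted p 0.629). Retn was at 982, 936 and 1120.5 CPM against 634, 1015 and 758, a log2 fold change of -0.34 (SE 0.24, adjusted p 0.473). For both Adipoq and Retn, hHKDC1 OE replicates 1 and 3 were below the null range and replicate 2 was inside it, and without replicate 2 the values were -0.49 (adjusted p 0.146) and -0.55 (adjusted p 0.0789). Scaled by the adipocyte markers, the values were 0.35 for Cfd, -0.02 for Adipoq and -0.12 for Retn.

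Nampt was lower in each hHKDC1 OE fat library than in any null library. It was at 179.9, 214 and 179 CPM in null fat and at 127, 125 and 160.0 CPM in hHKDC1 OE fat, a log2 fold change of -0.47 (SE 0.17, adjusted p 0.219). The exact permutation test over the libraries gave p = 0.1, the smallest it can give with 3 against 3. In this gene replicate 2 lay with replicate 1. Scaled by the adipocyte markers its value was -0.21 (adjusted p 0.766).

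**Figure D3:**
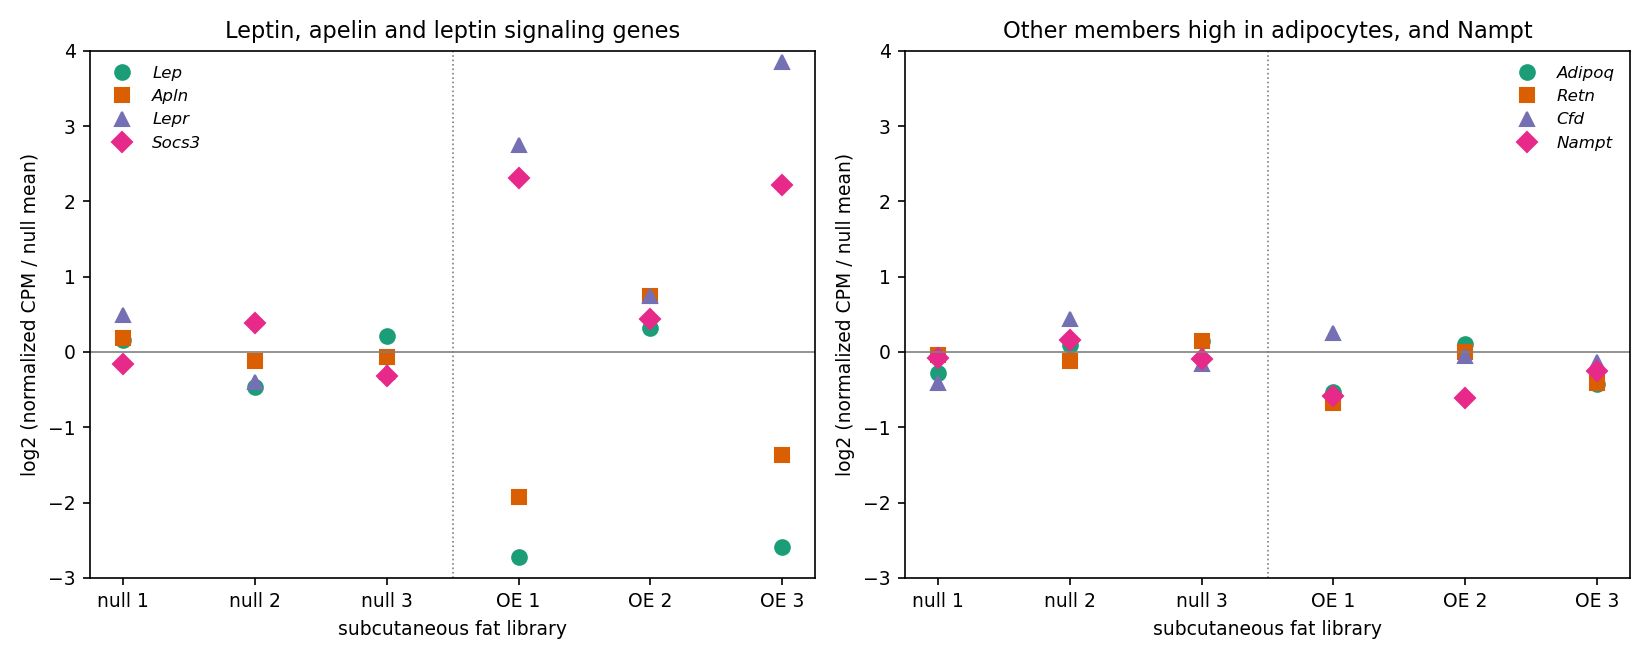
Level of single genes in each of the 6 fat libraries as log2 of normalized CPM over the mean of the 3 null libraries. On the left, Lep and Apln are low and Lepr and Socs3 high in hHKDC1 OE replicates 1 and 3, and all 4 are within 1 of the null mean in replicate 2; on the right, Adipoq, Retn, Cfd and Nampt stay within 1 of the null mean in every library.

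Rbp4 and Agt were measured in fat beside RNA of liver. Rbp4 was at 438.4, 424.1 and 752 CPM in null fat and at 257, 423.8 and 243 CPM in hHKDC1 OE fat. The groups did not overlap, although null replicate 2 and hHKDC1 OE replicate 2 were nearly equal. The log2 fold change was -0.80 (SE 0.32, adjusted p 0.263), with p = 0.1 by the exact permutation test, again the smallest possible, and without hHKDC1 OE replicate 2 it was -1.11 (SE 0.29, adjusted p 0.0407). Agt was at 32.5, 31.3 and 108 CPM against 21.4, 32.2 and 11.1 CPM, groups that overlapped, with a log2 fold change of -1.41 (SE 0.59, adjusted p 0.275).

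Null fat replicate 3, highest for both genes, also had the most hepatocyte RNA. The sum of 10 hepatocyte genes in the fat libraries was 2431, 2481 and 7809.9 CPM in null mice and 2473, 892 and 1323 CPM in hHKDC1 OE mice, which is 2.18%, 2.22% and 7.0% of the liver level for null fat and 2.65%, 0.958% and 1.4% for hHKDC1 OE fat. Liver RNA in these amounts would carry 41.6% to 50.4% of the Agt counts of null fat and 79.7%, 19.0% and 83.5% of those of hHKDC1 OE fat. For Rbp4 the shares were 22.2% to 38.4% with the null vector and 36.0%, 7.87% and 20.8% in hHKDC1 OE fat. After subtraction of this amount the log2 fold change of Rbp4 was -0.63 (adjusted p 0.397) and that of Agt -1.62 (adjusted p 0.432). Without null replicate 3 Rbp4 was -0.50 (adjusted p 0.474) and Agt -0.57 (adjusted p 0.544), and 2 of 17174 genes (0.0116%) were called. The predicted share was at most 3.88% for Nampt and at most 0.0239% for the other 5 members in each fat library.

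**Figure D4:**
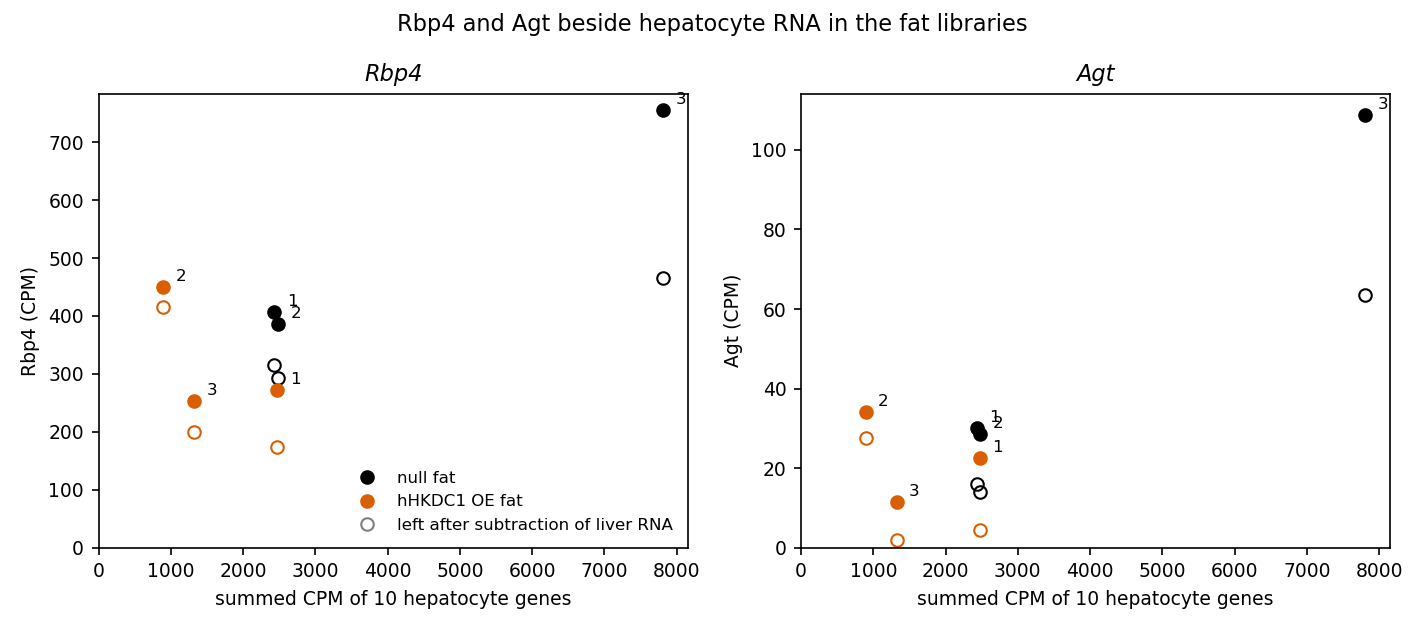
Rbp4 (left) and Agt (right) in the 6 fat libraries against the summed CPM of 10 hepatocyte genes in the same library, as measured (filled; the number is the replicate) and after subtraction of the liver profile (open). Null replicate 3, at 7809.9 CPM of hepatocyte genes, has the highest level of both, and subtraction takes Agt of hHKDC1 OE replicates 1 and 3 to 4.58 and 1.91 CPM.

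In liver, 0 of the 3 testable members passed the adjusted threshold by edgeR, and 0% of 13351 genes did; 927 (6.94%) had an unadjusted p under 0.05, and DESeq2 called 90. Rbp4 was at 4096, 4149 and 4460.1 CPM in null liver and at 3775, 3589 and 3510.5 CPM in hHKDC1 OE liver, and Nampt at 107, 101 and 98.3 CPM against 70.8, 59.0 and 96.4 CPM. Neither gene's groups overlapped, and in both the hHKDC1 OE libraries were lower, as held for 6.18% of tested genes. The 10 hepatocyte genes summed to 109460, 111757 and 113654 CPM of total counts in null liver. In hHKDC1 OE liver they summed to 101190, 95305 and 83072 CPM, and their part in Rbp4 and Nampt was not tested. The log2 fold changes were -0.22 for Rbp4 (SE 0.17, adjusted p 0.850) and -0.43 for Nampt (SE 0.18, unadjusted p 0.0429, adjusted p 0.692), with p = 0.1 each by the exact permutation test. Agt was at 646, 667 and 669.9 CPM against 812, 643 and 556 CPM, with a log2 fold change of 0.02 (SE 0.18, 95% interval -0.38 to 0.42). The 5 other members were too low in liver to pass the count filter, with at most 29 counts per library for Cfd and 5 for the rest. Cfd was tested in 9 alternative fits, with log2 fold changes of -2.44 to -0.77, all below 0, and adjusted p of 0.399 to 0.995.

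The treatment effect was then compared between tissues, first for the 3 members tested in both. The difference, fat minus liver, was -0.50 on the log2 scale for Rbp4 (adjusted p 0.666), -1.36 for Agt (SE 0.66, adjusted p 0.411) and 0.04 for Nampt (95% interval -0.56 to 0.63, adjusted p 0.993), and 0 of 17070 genes passed (0%; 12.7% at an unadjusted p under 0.05; DESeq2 called 493). The other 5 members had few liver counts, which left wide intervals. Of these Cfd had an unadjusted p under 0.05, with a difference of 2.11 (SE 0.75, 95% interval 0.47 to 3.75, p 0.0159, adjusted p 0.266 by edgeR) that rests on 2 to 29 counts per liver library. For Nampt the fold changes in fat and liver, -0.47 and -0.43, come from separate sets of libraries.

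Of the receptors and partners of the adipokines, 0 of the 56 tested genes of 8 lists passed the adjusted threshold in fat and 0 of 49 in liver by edgeR. An unadjusted p under 0.05 was found for 12 in fat (21.4%, against 17.7% of all genes) and 5 in liver (10.2%, against 6.94%). Without hHKDC1 OE replicate 2, 13 of 57 were called in fat (22.8%, against 18.9% of all genes): Lepr, Socs3, Ptpn1, Cap1, Stra6, Cma1, Cfp, Cd38 and Parp1 were higher, and Cdh13, Ace, Enpep and Retnla were lower. In what follows, values in parentheses without a unit are log2 fold changes in fat, hHKDC1 OE over null, unless liver is named. Among the 8 genes of leptin receptor signaling 4 were higher and 4 lower in hHKDC1 OE fat, with a median of 0.00 against -0.05 over all genes. The median of the list was 0.06 without hHKDC1 OE replicate 2 and -0.06 without null replicate 3. Lepr, the leptin receptor, was at 4.26, 2.29 and 2.51 CPM in null fat and at 20.2, 5.03 and 43.8 CPM in hHKDC1 OE fat (2.93, SE 0.74, adjusted p 0.138). The feedback inhibitor Socs3 was at 4.2, 6.08 and 3.74 CPM against 23.1, 6.31 and 21.6 CPM (1.86, SE 0.51, adjusted p 0.148), and the log2 fold change of the phosphatase Ptpn1 was 0.78 (adjusted p 0.167). These 3, and Irs1, the insulin receptor substrate, did not overlap between the groups, as did not 22.7% of all genes. Irs1 was lower, at 29.4 ± 1.09 CPM in null fat (SD, n = 3) and 26.6 ± 1.43 CPM with hHKDC1 (-0.14, adjusted p 0.592). The libraries with the least Lep, hHKDC1 OE replicates 1 and 3, had the most Lepr and Socs3, and replicate 2 lay just above the null range. Replicates 1 and 3 also held the most B cell RNA (830 and 589 CPM, against 46.4 CPM in replicate 2) and T cell RNA (440 and 484 CPM, against 35.8 CPM), whose part in Lepr and Socs3 was not tested. Replicate 2 was the hHKDC1 OE library nearest the null range in Lepr, Socs3 and Ptpn1, so that leaving it out narrows the spread of the group. In the fit without it Lepr was at 3.39 (adjusted p 0.00341), Socs3 at 2.25 (adjusted p 0.00306) and Ptpn1 at 0.99 (adjusted p 0.00425). In that fit 11.4% of all genes were called higher. In liver Lepr was at 2.48 ± 0.406 FPKM in null and 1.81 ± 0.953 FPKM in hHKDC1 OE mice (adjusted p 0.888).

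Adiponectin receptors Adipor1 (28.9 ± 3.58 FPKM in null fat, 28.9 ± 4.22 in null liver) and Adipor2 (86.7 ± 11.9 and 113 ± 4.83) were present in both tissues, and their log2 fold changes in fat were -0.24 (adjusted p 0.461) and -0.12 (adjusted p 0.773). Cdh13, the cell surface T-cadherin that binds adiponectin, was at 5.61 ± 0.879 FPKM in fat of null mice and 3.59 ± 1.34 in that of hHKDC1 OE mice (-0.61, adjusted p 0.275). In liver it was at 0.420 ± 0.128 and 0.125 ± 0.0901 FPKM (-1.68 in liver, adjusted p 0.605). Without hHKDC1 OE replicate 2 its value in fat was -0.92 (adjusted p 0.0177). Endothelial markers summed to 83.6, 102 and 57.8 CPM in null liver and to 38.6, 72.3 and 36.9 CPM in hHKDC1 OE liver. In fat they summed to 871 to 967 CPM with the null vector and to 729, 1131 and 765 CPM with hHKDC1. Their part in Cdh13 was not tested. Of the 9 tested genes of the adiponectin system 6 were lower in hHKDC1 OE than in null fat, with a median of -0.16. The median was -0.15 without hHKDC1 OE replicate 2 and -0.32 without null replicate 3. The apelin receptor Aplnr was at 5.55 ± 0.861 FPKM in null fat (0.14, adjusted p 0.775) and had 0 to 2 counts per liver library. Cap1, a proposed resistin receptor, did not overlap between the groups in fat (0.43, adjusted p 0.267). The related Retnla was at 278, 73.9 and 233 CPM in null fat and at 14.4, 308 and 16.9 CPM in hHKDC1 OE fat, again with replicate 2 above the null range and the others below it. Its log2 fold change was -0.78 (SE 1.16, adjusted p 0.737), and -3.65 (SE 0.59, adjusted p 0.00862) without replicate 2.

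Of the retinol transport genes 4 of 7 tested were higher in hHKDC1 OE than in null fat, with a median of 0.04. The median was -0.05 without hHKDC1 OE replicate 2 and 0.07 without null replicate 3. Stra6, the Rbp4 receptor, had 2, 4 and 2 counts with the null vector and 28, 12 and 28 in hHKDC1 OE fat (2.89, SE 0.68, adjusted p 0.134), and 0 counts in liver. Stra6l, the retinol transporter of liver, was at 12.7 ± 0.902 and 15.3 ± 1.41 FPKM in null and hHKDC1 OE liver (0.29, adjusted p 0.741). Transthyretin (Ttr), the partner of Rbp4 in plasma, had a log2 fold change of -1.50 in fat (SE 0.59, adjusted p 0.256), in libraries whose hepatocyte RNA differed, and -0.75 (adjusted p 0.433) without null replicate 3. In the renin-angiotensin list 4 of 8 were higher in hHKDC1 OE than in null fat, with a median of -0.01. The median was -0.28 without hHKDC1 OE replicate 2 and -0.06 without null replicate 3. The angiotensin II receptor Agtr1a was at 3.65 ± 0.684 FPKM in null fat and 20.5 ± 3.82 in null liver (0.06 in fat, adjusted p 0.928). Agtr1b and Agtr2 had 0 to 2 counts in every library, and the mast cell chymase Cma1 had a log2 fold change of 2.22 in fat (SE 0.70, adjusted p 0.188). Mas1, the receptor of angiotensin 1-7, had 0 to 14 counts per library.

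Of the alternative complement genes, in which Cfd acts, 4 of 9 were higher in hHKDC1 OE than in null fat, with a median of -0.23. The median changed sign when 1 library was left out: it was 0.04 without hHKDC1 OE replicate 2 and 0.29 without null replicate 3. Properdin (Cfp), made by leukocytes, was at 30.5, 18 and 39.3 CPM in null fat and at 88.9, 50.2 and 84.6 CPM in hHKDC1 OE fat (1.35, SE 0.33, adjusted p 0.137). The log2 fold changes of C3 and of Cfb, which adipsin cleaves, were 0.33 (adjusted p 0.427) and -0.46 (adjusted p 0.654), and those of the receptors C3ar1, C5ar1 and C5ar2 were 0.62, -0.23 and 0.41 with adjusted p of 0.521, 0.823 and 0.743. Without hHKDC1 OE replicate 2, Cfb was at -1.15 (adjusted p 0.111) and C5ar1 at -0.78 (adjusted p 0.274), and without null replicate 3 C5ar1 was at 0.08 and C5ar2 at 0.81. The small values of other receptors also moved: Adipor1 was at -0.37 without null replicate 3, and without hHKDC1 OE replicate 2 Adipor2 was at -0.06, Agtr1a at -0.37 and Aplnr at -0.11, with adjusted p of 0.314 to 0.855. Of the 13 genes of NAD salvage 6 were higher in hHKDC1 OE than in null fat, with a median of -0.01. The median was 0.01 without hHKDC1 OE replicate 2 and -0.02 without null replicate 3. Cd38, which consumes NAD, had a log2 fold change of 1.09 in fat (SE 0.30, adjusted p 0.153). Macrophage markers summed to 184 to 419 CPM in null fat and 641 to 1190.0 CPM in hHKDC1 OE fat, and the part of leukocyte RNA in Cfp and Cd38 was not tested.

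Across the 12 libraries each gene's closest companions were listed by Pearson r of log2 normalized CPM, as a description in which the 2 tissues form the main contrast. Adipoq was nearest to Aqp7 (0.999), Plin1 and Cdsn, Retn to Cdsn, Ankef1 and Ebf3, Lep to Fgf13, Lamc1 and Tmem178b, Cfd to Vsir, Rgcc and Mpp2, and Apln to Slc22a2, Apod and Gm17383, all with r of 0.995 or more. Rbp4 was nearest to Sardh, Hoga1 and Aldh7a1, and Agt to Hoga1, Rbp4 (0.994) and Masp1. Nampt, whose levels overlapped between the tissues, had looser companions in Ero1l (0.873), Hsdl2 (0.868) and Caprin1 (0.797).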

How the data were processed

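RNA of subcutaneous fat and liver from null and hHKDC1 OE male mice was sequenced as non-stranded, paired-end libraries, 3 per tissue and vector. Per the submitters' processing notes, alignment was by STAR 2.5 and gene counting by HTSeq 0.6.1. The deposited counts are whole numbers without normalization. The authors also deposited FPKM, which are corrected for length and scaled by a factor per library other than its total; FPKM served here for levels between genes, for some receptor levels in each group and in the limma alternatives. The sources name the human genome, but identifiers and positions are those of the mouse (GRCm38). GENCODE M21 was used here for overlapping genes, and its ends for Rbp4 differ from those in the files, which are printed. Group means, annotation columns and the authors' own fat comparison (fold changes, p-values) were not used.

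Each tissue was fitted with edgeR 4.0.16 (R 4.3.3): filterByExpr, TMM, the quasi-likelihood test and Benjamini-Hochberg adjustment over all genes tested, with 0.05 as the threshold. The difference between tissues was an interaction over 12 libraries. Levels printed as normalized CPM use TMM within a tissue, and marker sums use CPM of total counts. Exact permutation tests (scipy 1.17.1, two-sided) took normalized CPM. For liver RNA in fat, the liver profile of the same vector was scaled by 10 hepatocyte genes and subtracted. Alternatives were DESeq2 1.42.0, limma 3.58.1 on log2(FPKM + 1) and log2(FPKM + 0.1), other normalizations and filters, all 12 libraries fitted together, a block for the replicate number, each library left out in turn, and, added after seeing the data, the libraries described as knockouts left out. The main edgeR fits, the replicate block in fat, DESeq2 and limma were run on simulated counts with known changes. The other steps were not. The members and gene lists were chosen with earlier results of these data known. The genes named are the members, their receptors, up to 4 genes per list by smallest p, and for each member the 3 genes with the highest r. Genes of the lists called without hHKDC1 OE replicate 2, and a few others of the complement and renin-angiotensin lists, were named after their values were seen. A gene so covered is not reported here. The study gives 3 mice per group for fat; for liver, whether libraries came from separate mice is not given in the sources used here, and p-values there measure the spread between libraries. Fat and liver libraries with the same number were not treated as one mouse.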

Additional observations from a re-analysis of the deposited data

How the results depend on the processing

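Fat has 3 libraries per group, and 1 of them decides the Lep, Apln and Rbp4 calls. With each library left out in turn, 0 to 3251 genes and 0 to 3 members were called in fat, the highest numbers without hHKDC1 OE replicate 2; Apln ranged from -1.64 to 0.049 and Cfd from -0.17 to 0.27. In liver 0 to 146 genes were called, the highest number without hHKDC1 OE replicate 2, and Agt ranged from -0.14 to 0.14. Nampt ranged from -0.073 to 0.051 between the tissues of null mice, from -0.25 to 0.13 in hHKDC1 OE mice and from -0.23 to 0.26 in the difference between treatment effects, where 0 to 1211 genes were called. Without the libraries described as knockouts, 1024 genes (5.58%) and 2 members were called in fat and 76 genes (0.531%) in liver.

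The number of genes called in fat was 876 with the 12 libraries fitted together, 1301 with DESeq2, 803 with no filter on low counts 1 with limma on log2(FPKM + 1), 504 when scaled by the adipocyte markers (481 higher, 23 lower) and 0 with liver RNA subtracted. In liver it was 90 with DESeq2, 327 with no filter, 2 with library size alone, and 3 and 5 with limma on log2(FPKM + 1) and log2(FPKM + 0.1). The difference between treatment effects had 493 genes with DESeq2 and 479 with no filter. With a replicate block 168 genes were called in fat and 17 in liver, and no member changed its call. Whether the replicate numbers pair the libraries cannot be decided here, since only libraries of the same number were correlated. Deviations of same-numbered null and hHKDC1 OE fat libraries from their group means correlated at 0.03, -0.13 and 0.03. Those of liver libraries correlated at 0.21, 0.16 and 0.08, and those of the corresponding fat and liver libraries at 0.02 to 0.24. With 10 counts asked for in every library, the members near 0 in liver were no longer tested between tissues.

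Values near 0 changed sign. Agt in liver was -0.00069 with the 12 libraries fitted together and -0.030 with limma at either offset. Nampt in null mice, fat over liver, was 0.0060 with DESeq2 or its size factors, 0.12 with 10 counts in every library, 0.86 with library size alone, 0.022 and 0.021 with limma at offsets 0.1 and 1, 0.025 with no filter and 0.13 with upper-quartile factors. In hHKDC1 OE mice it was 0.0070 with the 12 libraries fitted together, 0.058 with 10 counts in every library, 0.91 with library size alone and 0.12 with upper-quartile factors. In the difference between treatment effects it was -0.064 with DESeq2, -0.063 with its size factors, -0.038 with limma at either offset and -0.0052 with upper-quartile factors. The cause was not tested, apart from the tests lost to the stricter filter.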

Other observations

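Of 36 other secreted factors of fat, 31 were tested in fat and 26 in liver, and 0 passed the adjusted threshold in either by edgeR. An unadjusted p under 0.05 was found for 3 of 31 in fat, against 17.7% of all genes, and for 9 of 26 in liver, against 6.94%. In fat 21 were lower and 10 higher in hHKDC1 OE mice, with a median log2 fold change of -0.32 against -0.05 over all genes. The median of the list was -0.49 without hHKDC1 OE replicate 2 and -0.18 without null replicate 3. Lcn2, lipocalin 2, a siderophore-binding protein of the acute phase, was at 2.43, 1.43 and 1.93 CPM in null fat and at 13, 6.45 and 16.7 CPM in hHKDC1 OE fat (2.64, SE 0.43, adjusted p 0.133). In liver it was 10.2 ± 9.53 CPM in null mice and 369 ± 326 CPM in hHKDC1 OE mice (5.17, SE 0.97, unadjusted p 0.000414, adjusted p 0.345), without overlap in either tissue. Nrg4, a neuregulin that fat secretes, was lower without overlap in both tissues, by -0.57 in fat (SE 0.20, adjusted p 0.224) and -0.68 in liver (SE 0.16, adjusted p 0.447). Without hHKDC1 OE replicate 2, of 32 tested factors 2 were called higher and 10 were called lower in fat. Lcn2 and Tnf were higher, and Mest, Sfrp5, Fbn1, C1qtnf9, Sparc, C1qtnf1, Lpl, Bmp4 and Fstl1 were among those lower, with 18.9% of all genes called in that fit. The 2 hHKDC1 OE libraries in that fit had endothelial RNA (729 and 765 CPM) below the null range of 871 to 967 CPM, and preadipocyte and fibroblast RNA (1403 and 2690 CPM) below and inside the null range of 2095 to 3733 CPM. The same 2 libraries held macrophage RNA (920 and 1190 CPM) above the null range of 184 to 419 CPM. Their B cell RNA (830 and 589 CPM, against 1.47 to 2.79 CPM) and T cell RNA (440 and 484 CPM, against 4.68 to 13.7 CPM) were also higher. The part of these cells was not tested.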
